A study of Homo sapiens with 4 samples.

Results

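The mitochondrial ribosomal protein genes code for the protein part of the mitochondrial ribosome (mitoribosome). They were followed here in HT-29 cells after silencing of APC. The members were all genes in the deposited comparison table whose symbol begins with MRPL or MRPS and a digit, which gave 75 genes, 48 of the large subunit (MRPL) and 27 of the small subunit (MRPS). The table lists 6145 of the 19729 genes that have a value, and the lowest mean of its genes over the 4 libraries is 8. Members were thus chosen by symbol and by level, so the levels below are a description. The symbols MRPL42, MRPS14 and MRPS25 had values but lower means, between 2.75 and 7.25, and were not members.

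HT-29 is an established human colorectal cancer (CRC) line, labelled as microsatellite stable (MSS), APC-mutant and BRAF-V600E, and its APC protein is already truncated. Cells carried a lentiviral short hairpin RNA (shRNA) that doxycycline (DOX) switches on. It targeted APC (APC shRNA) or was non-silencing (NonS), and the cells were at passage 3 to 5 after transduction. All cultures, the NonS controls included, received 500 ng/ml DOX for 72 h. The mRNA of 2 NonS and 2 APC shRNA cultures was sequenced, labelled as biological replicates I and II. The silencing thus used a stable shRNA population of a single cell line, and no library without DOX was analysed here.

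The deposited values are whole numbers that the authors made from their reads. They behaved as scaled scores and not as read counts, so the depth behind each value is unknown. They summed to between 398338 and 413595 per library. APC had a value of 3 in NonS replicate I and of 0 elsewhere, too low a level to check the labels. AXIN2, a negative feedback gene of the Wnt pathway, scored 16 and 22 under NonS against 124 and 178 under APC shRNA. Of the 8 colonic epithelium markers looked at, all but CDX2, which was listed at 0, 0, 2 and 4, had a value of at least 29 in every library. The 4 fibroblast and 3 leukocyte markers were listed at 0 in all libraries.

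Mitoribosomes translate the few proteins that mitochondrial DNA encodes, all of them subunits of the respiratory chain or the ATP synthase. Their own proteins are encoded in the nucleus, made in the cytosol and imported. The small subunit holds the mRNA and its decoding centre, and the large subunit joins amino acids and lets the new chain leave towards the inner membrane. Many MRPL and MRPS proteins have a counterpart in bacterial ribosomes, and others are found only in mitochondria. DOX belongs to the tetracyclines, antibiotics that bind the bacterial small subunit and can also slow mitochondrial translation. The design compares APC shRNA with NonS under the same DOX exposure, and the effect of DOX itself was not tested.

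The promoters of 6 members, chosen after their values were seen, are shown. MRPL16 is the member that was called, MRPS35 and MRPS6 have the lowest and highest differences of the small subunit, MRPL53 has the highest of the large subunit, and MRPL17 and MRPS18B are examples with an NRF1 motif. RefSeq promoters (GRCh38.p14) were matched for 67 of the 75 members, with no entry for MRPL10, MRPL13, MRPL15, MRPL2, MRPL21, MRPL23, MRPL35 and MRPS28. Each window runs from 140 bases before the RefSeq start site to 10 bases after it, 5′ to 3′ on the strand of the gene. The GENCODE v29 gene bounds, used for the positions of the members, reach further out than these start sites. By those bounds the MRPS6 and MRPL53 windows lie wholly inside the gene, the MRPS18B window nearly so and the other windows partly. Capitals mark the ETS motif CCGGAAG, the NRF1 motif GCATGCG and the YY1 motif AAGATGGCG on either strand. ETS factors such as GABPA, together with NRF1 and YY1, are known regulators of nuclear genes for mitochondrial proteins.
MRPL16 (chr11:59810769-59810918, minus strand): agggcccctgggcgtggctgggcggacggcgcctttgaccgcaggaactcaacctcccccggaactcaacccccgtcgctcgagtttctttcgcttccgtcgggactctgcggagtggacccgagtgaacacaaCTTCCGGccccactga
MRPL17 (chr11:6683331-6683480, minus strand): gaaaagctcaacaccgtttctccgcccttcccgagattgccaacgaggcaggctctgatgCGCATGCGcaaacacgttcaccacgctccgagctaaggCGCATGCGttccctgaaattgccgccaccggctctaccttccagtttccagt
MRPL53 (chr2:74472671-74472820, minus strand): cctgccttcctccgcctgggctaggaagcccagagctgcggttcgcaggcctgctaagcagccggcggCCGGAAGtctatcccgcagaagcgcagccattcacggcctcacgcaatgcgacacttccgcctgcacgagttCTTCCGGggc
MRPS35 (chr12:27710692-27710841, plus strand): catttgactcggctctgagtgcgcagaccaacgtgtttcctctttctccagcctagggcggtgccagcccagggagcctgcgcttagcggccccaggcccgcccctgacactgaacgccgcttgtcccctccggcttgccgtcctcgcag
MRPS18B (chr6:30617700-30617849, plus strand): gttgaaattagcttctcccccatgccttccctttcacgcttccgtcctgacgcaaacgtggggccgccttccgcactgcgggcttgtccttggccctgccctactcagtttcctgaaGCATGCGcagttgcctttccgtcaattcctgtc
MRPS6 (chr21:34073438-34073587, plus strand): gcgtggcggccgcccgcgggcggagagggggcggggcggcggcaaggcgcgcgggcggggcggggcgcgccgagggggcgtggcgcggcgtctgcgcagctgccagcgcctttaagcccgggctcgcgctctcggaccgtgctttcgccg

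The 6 windows differ in these letters. MRPL16 holds an ETS motif, MRPL53 holds it in 2 places, MRPL17 carries the NRF1 motif on both strands of the same palindrome in 2 places, and MRPS18B has a single NRF1 motif. MRPS35 and MRPS6 have none of the 3 motifs, and the MRPS6 window is 83.3% G and C. In the full promoters, of 250 bases before and 50 bases after the start, the ETS motif was found in 29 of the 67 members, 43.3%, and in 10.7% of all 27305 promoters in the table. The YY1 motif was found in 17.9% of the members and 1.85% of all promoters, and the NRF1 motif in 10.4% and 4.13%. The SP1 motif GGGCGG was found in 62.7% of the members and 44.6% of all promoters. CTTTGAT, the core of the site bound by TCF factors of the Wnt pathway, was in 0 of the 67 members' promoters and in 2.64% of all promoters. No motif searched contains another, and all were searched on both strands. The 27305 promoters were not filtered by expression, whereas the members were chosen also by level. These shares were therefore not compared at like levels, and a trait of the family was not tested. The median GC content of the promoters was 61.0% in the members and 58.3% in all promoters. Members tested with an ETS motif had a median log2 difference between conditions of 0.0 (28 genes), and those without of -0.122 (36 genes). With the SP1 motif the median was -0.121 (41 genes), and without it -0.037 (23 genes). For NRF1 the medians were -0.069 (7 genes) and -0.076 (57 genes), and for YY1 -0.045 (11 genes) and -0.076 (53 genes). A letter match is not a bound site.

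The levels spread widely within the family. Levels are compared between genes on the deposited score, whose scaling by transcript length is inferred and not stated. The median member had a mean value of 30.0 over the 4 libraries, and the large and small subunits had medians of 28.6 and 30.0.

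MRPL13, the counterpart of the bacterial protein L13, had the highest mean of all members, 120.25, from 154 and 135 under NonS and 105 and 87 under APC shRNA. MRPS34, a small subunit protein of mitochondria only, was next with 89 and 106 under NonS against 82 and 88 under APC shRNA. MRPS15, the counterpart of bacterial S15, scored 77 and 84 under NonS against a common 82 in the APC shRNA duplicates. MRPL45 lies at the exit of the large subunit tunnel and ties the mitoribosome to the inner membrane. It scored 78 and 82 under NonS against 79 and 78 under APC shRNA. Among these 4 highly expressed members, APC shRNA libraries lay below NonS for MRPL13 and MRPS34, and the conditions overlapped for MRPS15 and MRPL45. The log2 differences of MRPS15 (0.028) and MRPL45 (-0.027) both changed sign under other settings.

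**Figure D1:**
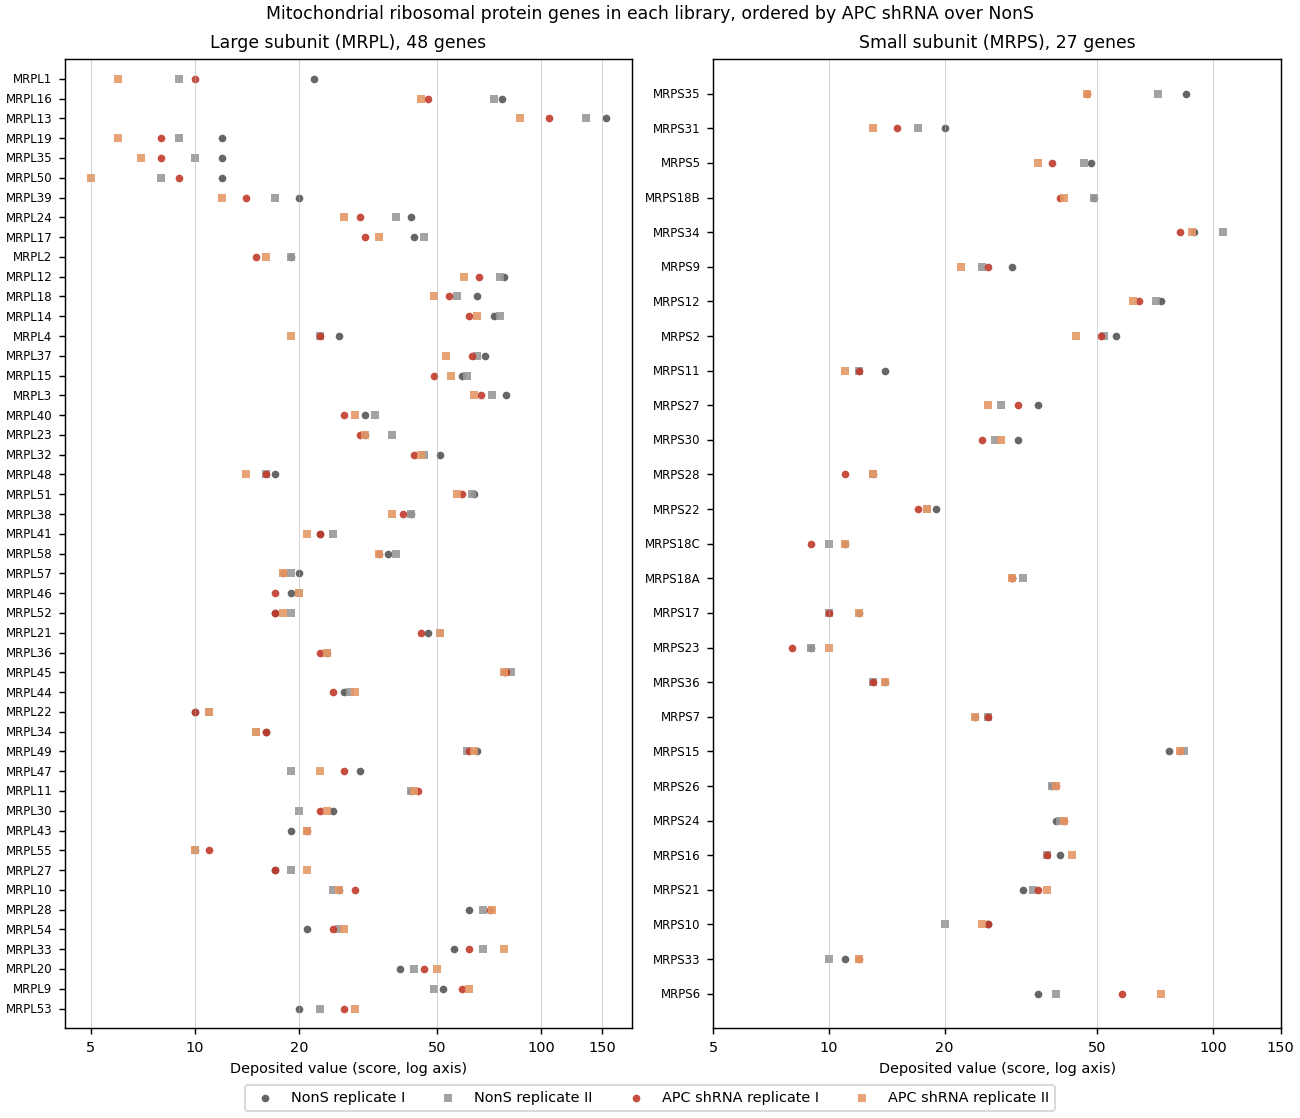
Deposited value (score, log axis) of each of the 75 members in each library, large subunit left and small subunit right, with genes ordered by the ratio of the APC shRNA to the NonS mean. Grey symbols are NonS and red or orange symbols APC shRNA, with circles for replicate I and squares for replicate II; MRPL1, MRPL16 and MRPS35 have the lowest ratios, and MRPL53 and MRPS6 the highest of their subunits.

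At the low end, 4 members had a mean under 10 and were not tested: MRPL50, MRPL19, MRPS23 and MRPL35, with means of 8.5, 8.75, 9.0 and 9.25. The members just below and just above the limit were described by value. MRPL35 scored 12 and 10 under NonS against 8 and 7 under APC shRNA, and MRPS23 at 9 and 9 against 8 and 10. Just above the limit, MRPL55 scored 10 in each NonS duplicate against 11 and 10 under APC shRNA, and MRPS18C at 11 and 10 against 9 and 11. At a value of 10, a step of 1 unit is 0.126 on the log2 scale, so the difference of MRPL55 (0.063) and of MRPS18C (-0.069) was smaller than a single step. At the median level of 30.0 a step is 0.046.

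The comparison of APC shRNA with NonS asked whether loss of the remaining APC moved these genes. It was made on log2(value + 1) with limma across the 5376 genes whose mean reached 10. Adjustment was by Benjamini-Hochberg. Log2 differences are on this scale, which understates changes of genes with low values. Of the 71 members that entered it, 45 of the large and 26 of the small subunit, 0 were called higher and 1, MRPL16, was called lower at an adjusted p under 0.05. Among all genes tested, 8.04% were called, 4.33% higher and 3.7% lower. At an unadjusted limma p under 0.05, 3 members were higher and 12 lower, together 21.1% of the members, while 35.6% of all genes passed. With the values scaled to equal totals or by upper quartile, 1 member was called higher and 3 lower, next to 13.2% and 12.7% of all genes called in either direction.

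Both APC shRNA libraries lay below both NonS libraries for 25 of the 71 members, 35.2%, against 27.5% of all genes. They lay above for 10 members, 14.1%, against 33.0% of all genes. Differences were below 0 for 45 members and above 0 for 26, against 2534 and 2827 of the 5376 genes tested. The median log2 difference of the members was -0.076, and that of all genes tested 0.027. Most single members therefore differed little, with a median absolute difference of 0.136, against 0.26 for all genes.

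**Figure D2:**
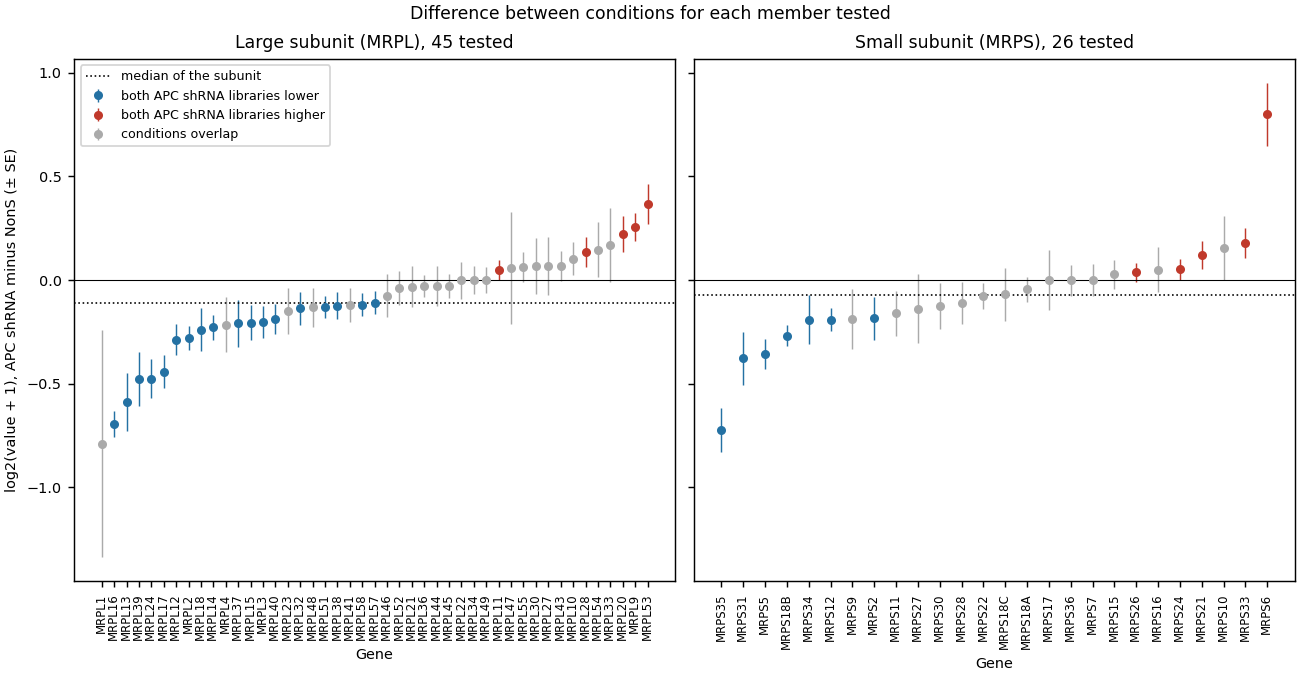
Log2 difference of each tested member (APC shRNA minus NonS, on log2(value + 1), with the limma standard error), 45 large subunit genes left and 26 small subunit genes right, ordered by size. Blue genes have both APC shRNA libraries below NonS (18 large, 7 small), red genes both above (5 and 5), grey genes overlap, and the dotted lines are the subunit medians of -0.109 and -0.072.

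MRPL16, the counterpart of the bacterial protein L16, which sits near the peptidyl transferase centre, was the member called (chr11:59806135-59810872, minus strand, GRCh38). It scored 77 and 73 under NonS against 47 and 45 under APC shRNA. The conditions were far apart and the duplicates close together. The mean fell from 75.0 ± 2.83 to 46.0 ± 1.41 (SD, n = 2), a log2 difference of -0.693 (SE 0.063, adjusted p = 0.0441 in limma with Benjamini-Hochberg adjustment). Leaving out any of the 4 libraries kept the difference between -0.731 and -0.655 but ended the call, with adjusted p between 0.15 and 0.208 in limma. For 1 gene in 2 against 2 libraries, 0.333 is the smallest p of a two-sided exact permutation test. No exon of MRPL16 overlaps another annotated gene.

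Other large subunit members lay lower in APC shRNA without passing the main test. MRPL13 (values above) had a log2 difference of -0.588 (SE 0.14, adjusted p = 0.0961 in limma with Benjamini-Hochberg adjustment). MRPL17, the counterpart of bacterial L17, scored 43 and 46 under NonS against 31 and 34 under APC shRNA. MRPL24, counterpart of bacterial L24, scored 42 and 38 against 30 and 27. In all 3 the conditions did not overlap. MRPL17 passed 0.05 with equal totals, upper-quartile scaling and length correction, with adjusted p = 0.0472, 0.0456 and 0.044 in limma. With the replicate number as a block, MRPL13, MRPL17 and MRPL24 passed, with adjusted p = 0.0474, 0.0479 and 0.0474 in limma. No label ties the replicate numbers to a shared batch. MRPL17 and MRPL24 were chosen after their values were seen.

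MRPL1, the counterpart of the protein of the L1 stalk that guides used tRNA out of the ribosome, had the lowest fitted difference of the family, -0.789, and also the largest error (SE 0.548). It scored 22 and 9 under NonS against 10 and 6 under APC shRNA. The conditions overlapped, and the NonS replicates alone differed by -1.202 (II minus I) on the log2 scale. Without single libraries the difference of MRPL1 ranged from -1.39 to -0.189.

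MRPL12 is the counterpart of the bacterial stalk protein that recruits translation factors and was also described as a partner of the mitochondrial RNA polymerase. It scored 78 and 76 under NonS against 66 and 60 under APC shRNA, with a log2 difference of -0.287 (SE 0.075). Of its exonic bases, 68.2% also belong to another gene model on the same strand (AC139530.2), and reads there cannot be assigned to either. MRPL58, a peptidyl-tRNA hydrolase that became part of the large subunit, scored 36 and 38 under NonS against a common 34 in the APC shRNA duplicates. Both genes had APC shRNA values below NonS and neither passed the test, with adjusted p = 0.106 and 0.239 in limma with Benjamini-Hochberg adjustment.

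The remaining large subunit members whose conditions did not overlap on the lower side ranged from MRPL39, with a log2 difference of -0.477 (SE 0.13), to MRPL57, with -0.109 (SE 0.055). Between them lay MRPL2, MRPL3, MRPL14, MRPL15, MRPL18, MRPL32, MRPL37, MRPL38, MRPL40 and MRPL51, and none of these passed the test. MRPL39, a protein of mitochondria only, scored 20 and 17 under NonS against 14 and 12 under APC shRNA. MRPL3, the counterpart of bacterial L3, scored 79 and 72 against 67 and 64. MRPL22, MRPL34 and MRPL49 had equal means in both conditions, and MRPL49 scored 65 and 61 against 62 and 64. These genes were chosen after their values were seen.

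The large subunit members with the highest differences were MRPL53, MRPL9 and MRPL20. MRPL53, found only in mitochondria, scored 20 and 23 under NonS against 27 and 29 under APC shRNA, a log2 difference of 0.368 (SE 0.098). MRPL9, the counterpart of bacterial L9, scored 52 and 49 against 59 and 62, and MRPL20, the counterpart of bacterial L20, at 39 and 43 against 46 and 50. In these genes both APC shRNA libraries lay above NonS, and adjusted p was 0.109, 0.104 and 0.188 in limma with Benjamini-Hochberg adjustment. MRPL53 shares 45.2% of its exonic bases with CCDC142 on the same strand, and MRPL9 and MRPL20 also share exonic bases with other genes.

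In the small subunit, MRPS35 and MRPS6 stood at the ends of the range. MRPS35 (chr12:27710773-27756295, plus strand, GRCh38), a protein of mitochondria only, scored 85 and 72 under NonS against a common 47 in the APC shRNA duplicates. The means were 78.5 ± 9.19 and 47.0 ± 0.0 (SD, n = 2), and the log2 difference was -0.723 (SE 0.107, adjusted p = 0.0571 in limma with Benjamini-Hochberg adjustment). The APC shRNA libraries lay well below NonS, and the gene passed 0.05 under each of the 3 other scalings, with adjusted p between 0.0319 and 0.0363 in limma.

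MRPS6 (chr21:34073224-34143034, plus strand, GRCh38), the counterpart of bacterial S6, scored 35 and 39 under NonS against 58 and 73 under APC shRNA. The conditions were apart, and the APC shRNA replicates differed more than the NonS replicates. The means were 37.0 ± 2.83 and 65.5 ± 10.6 (SD, n = 2), and the log2 difference was 0.8 (SE 0.152, adjusted p = 0.0717 in limma with Benjamini-Hochberg adjustment). Under the other scalings adjusted p of MRPS6 was 0.0407 with equal totals, 0.0362 with upper quartile and 0.0501, not a call, with median-of-ratios in limma. The gene SLC5A3, which codes for a myo-inositol transporter, shares 273 exonic bases with MRPS6 on the same strand and was listed at 4, 2, 4 and 2.

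MRPS31, a protein of mitochondria only, scored 20 and 17 under NonS against 15 and 13 under APC shRNA. MRPS5, the counterpart of bacterial S5, scored 48 and 46 against 38 and 35. Both had all APC shRNA values below NonS, with log2 differences of -0.377 (SE 0.127) and -0.357 (SE 0.071). On the other side, MRPS33, a protein of mitochondria only, scored 11 and 10 against 12 and 12, and MRPS10, the counterpart of bacterial S10, at 26 and 20 against 26 and 25. The difference of MRPS10 turned to -0.027 without NonS replicate II, and its conditions overlapped.

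MRPS12, the counterpart of the decoding centre protein S12, scored 73 and 71 under NonS against 64 and 62 under APC shRNA, a log2 difference of -0.19 (SE 0.055). MRPS2, the counterpart of bacterial S2, scored 56 and 52 against 51 and 44. Conditions did not overlap in either gene, nor in MRPS34, with -0.191 (SE 0.119). On the higher side MRPS21, MRPS24 and MRPS26 also did not overlap, but their differences were only 0.122, 0.053 and 0.037, and MRPS26 moved by a single unit, from 38 to 39 in both duplicates. MRPS7 and MRPS17, counterparts of bacterial S7 and S17, had equal means in both conditions. Apart from MRPS34, these small subunit genes were chosen after their values were seen.

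MRPS18A, MRPS18B and MRPS18C are paralogs of bacterial S18 and occupy different places in the mitoribosome, MRPS18A in the large subunit. MRPS18B (chr6:30617709-30626395, plus strand) scored 49 in each NonS duplicate against 40 and 41 under APC shRNA. MRPS18A scored 30 and 32 under NonS against a common 30 in the APC shRNA duplicates. MRPS18B alone of the 3 had conditions that did not overlap, with a log2 difference of -0.269 (SE 0.051, adjusted p = 0.0712 in limma with Benjamini-Hochberg adjustment). The differences of MRPS18A and MRPS18C were -0.045 (SE 0.06) and -0.069 (SE 0.128), and the difference between paralogs was not tested. MRPS18A and MRPS18C share 47.0% and 40.2% of their exonic bases with genes on the opposite strand (RSPH9 and ABRAXAS1).

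MRPS30 also lies in the large subunit in spite of its name and scored 31 and 27 under NonS against 25 and 28 under APC shRNA. MRPS36, also known as KGD4, is a component of the 2-oxoglutarate dehydrogenase complex and scored 14 and 13 under NonS against 13 and 14 under APC shRNA. The conditions overlapped in both. With MRPS18A and MRPS30 counted in the large subunit and MRPS36 left out, the subunit medians were -0.109 and -0.076, next to -0.109 and -0.072 by symbol.

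Summed over the 48 large subunit genes, the values were 1899 and 1857 in NonS and 1707 and 1692 in APC shRNA. Over the 27 small subunit genes they were 960 and 938 against 885 and 901. Both sums were lower in both APC shRNA libraries. The large subunit mean went from 1878 ± 29.7 to 1699.5 ± 10.6, a change of -9.5%, and the small subunit mean from 949 ± 15.6 to 893 ± 11.3, a change of -5.9% (SD, n = 2). These sizes depended on single genes. Without MRPL13 the large subunit sum changed by -7.5%, and without MRPS6 the small subunit sum changed by -9.27%. The order of the subunits turned only with both genes left out, and not with either alone. Leaving out these genes was chosen after seeing the data. In bulk RNA, fewer expressing cells and less RNA per cell cannot be told apart.

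The large subunit sum was 1.98 times the small subunit sum in both NonS libraries, and 1.93 and 1.88 times in APC shRNA. This difference depended on MRPS6 and MRPL13. Without MRPS6 the ratios were 2.05 and 2.07 in NonS and 2.06 and 2.04 in APC shRNA, which overlap. Without MRPL13 they were 1.82 and 1.84 in NonS and 1.81 and 1.78 in APC shRNA, a smaller difference. Without MRPL13 and MRPS6 they were 1.89 and 1.92 in NonS and 1.94 in both APC shRNA libraries, the opposite direction. Of the large subunit members 40.0% had both APC shRNA libraries below NonS, and of the small subunit members 26.9%, next to 27.5% of all genes. Both libraries lay above NonS for 11.1% and 19.2%, next to 33.0% of all genes. These counts describe the members, and no test between the subunits was made.

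GC content, the share of G and C in a gene's longest annotated transcript, varied from 33.5% in MRPL13 to 71.9% in MRPL41 among the members. The medians were 51.7% in the large and 47.0% in the small subunit, and 51.9% over all genes tested. The central 90 coding bases of 3 members are shown, 5′ to 3′ with G and C in capitals, because they span this range around MRPL16.
MRPS36 (coding bases 110 to 199 of 309, chromosome 5): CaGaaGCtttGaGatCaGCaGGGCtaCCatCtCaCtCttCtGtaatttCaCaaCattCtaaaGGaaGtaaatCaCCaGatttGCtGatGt
MRPL16 (coding bases 332 to 421 of 753, chromosome 11): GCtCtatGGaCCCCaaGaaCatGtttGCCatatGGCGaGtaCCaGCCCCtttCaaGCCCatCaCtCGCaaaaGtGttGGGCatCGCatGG
MRPL41 (coding bases 161 to 250 of 411, chromosome 9): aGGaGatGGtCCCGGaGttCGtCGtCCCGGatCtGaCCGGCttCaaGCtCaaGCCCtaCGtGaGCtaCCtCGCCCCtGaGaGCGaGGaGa
They hold 40.0%, 53.3% and 62.2% G and C, and the whole transcripts 35.0%, 50.7% and 71.9%.

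Across all genes tested, the difference between conditions rose with GC content (Spearman correlation 0.24 across 5364 genes). Across the 71 members it did not, with a correlation of 0.007, and of 0.095 in the large and -0.138 in the small subunit. Genes of a library share its preparation and are not independent replicates, so these are descriptions. In the members with the lowest GC content, 33.5% to 44.9%, the median difference was -0.072, and that of all genes in this range -0.169. In the middle range, 45.2% to 52.3%, the medians were -0.109 and 0.041. In the highest range, 52.7% to 71.9%, they were -0.122 and 0.099. The members thus lay above the other genes of low GC content and below those of middle and high GC content.

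**Figure D3:**
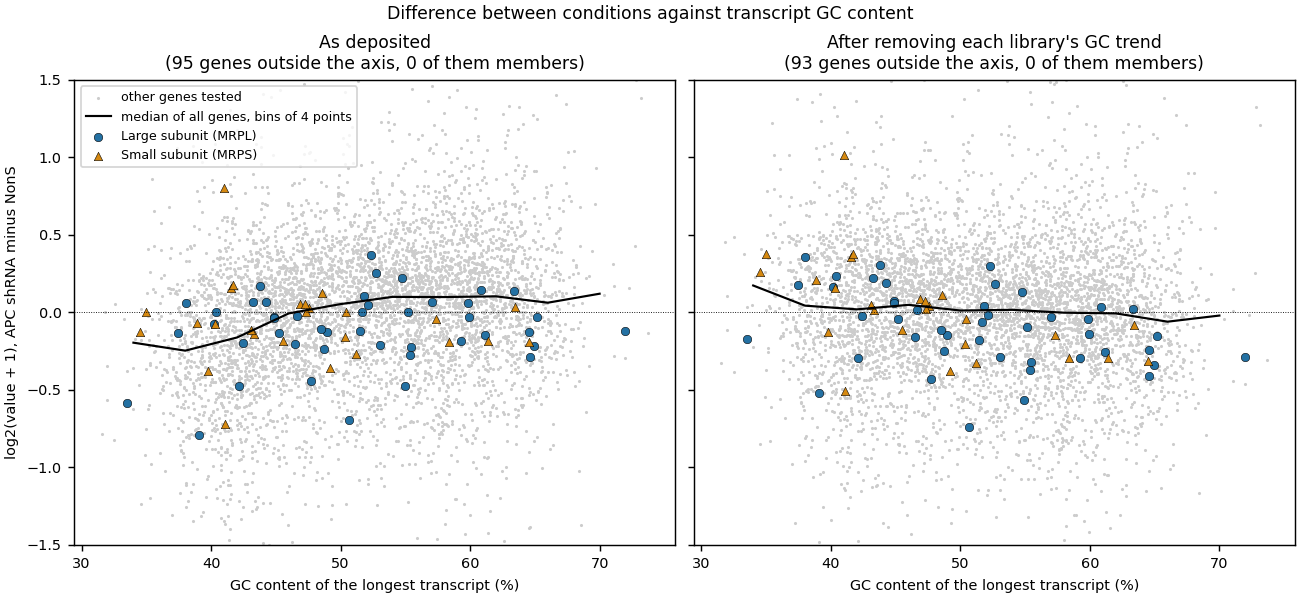
Log2 difference between conditions against the GC content of the longest transcript, as deposited (left) and after removing each library's GC trend (right), for all genes tested (grey, with the median in bins of 4 percentage points as a line), large subunit (blue circles) and small subunit members (orange triangles). The line of all genes rises with GC content on the left and is nearly flat on the right. There the members run downwards (Spearman correlation -0.506), which follows from removing the rising trend of all genes from them.

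When the trend with GC content over all genes was removed from each library, the median of the members moved from -0.076 to -0.045. It was -0.094 in the large and 0.018 in the small subunit, next to 0.012 for all genes, so the sign of the small subunit median depended on this step. The correlation of the members with GC content then was -0.506, next to -0.049 over all genes. This value follows from the correction, which took a rising trend off members without such a trend (correlation 0.007). It is not a separate observation. After this correction 1 member was called higher and 3 lower, while 16.8% of all genes were called in either direction.

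The correction moves each member by an amount set by its GC content alone, so the sizes of these shifts restate the correction. MRPL13, of the lowest GC content, went from -0.588 to -0.175, and MRPL41, of the highest, from -0.121 to -0.288. MRPL41, a mitochondria-specific protein that scored 23 and 25 under NonS against 23 and 21 under APC shRNA, passed the test in neither fit. MRPS36, with equal means in both conditions, came to 0.377, and MRPS30 went from -0.124 to 0.263. MRPL16 was called in both fits, with -0.741 (adjusted p = 0.0249 in limma) after the correction, and MRPS35 (-0.508), MRPL17 (-0.431) and MRPS6 (1.018) passed 0.05 there but not in the uncorrected fit. By the same rule the shift was small at a GC content near the middle, as in MRPL16 and MRPL17.

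Duplicates of the same condition also differed with GC content. In NonS, replicate II minus replicate I had a Spearman correlation with GC content of 0.419 across the members and 0.486 across all genes. In APC shRNA it was -0.136 and 0.078. The trend was thus present between the NonS duplicates, which received the same shRNA and DOX. In members of low GC content the median NonS difference between duplicates was -0.129, and in those of high GC content 0.0, next to -0.17 and 0.107 for all genes. MRPL1 and MRPL47, both of low GC content, differed most between the NonS duplicates, with 22 and 9 and with 30 and 19, and MRPL47 was chosen after its values were seen. The part of this trend in the differences between conditions was not tested beyond the corrected values above.

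**Figure D4:**
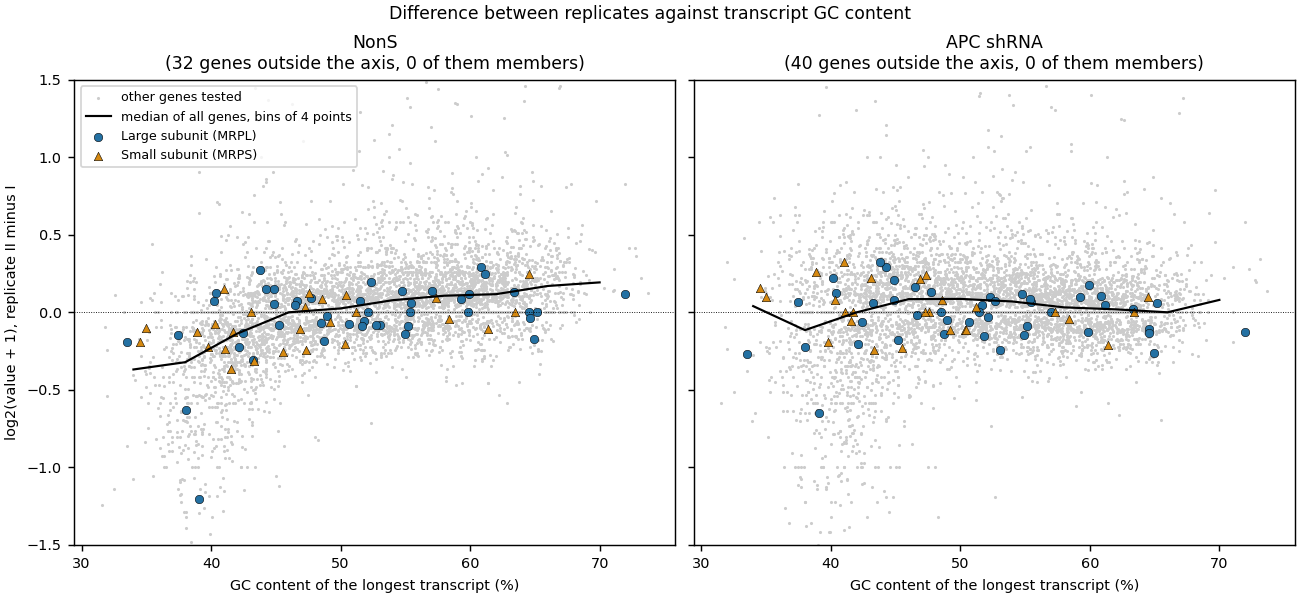
Log2 difference of replicate II minus replicate I against the GC content of the longest transcript, in NonS (left) and APC shRNA (right), for all genes tested (grey, median as a line), large subunit (blue circles) and small subunit members (orange triangles). In NonS, the median of all genes lies below 0 at low and above 0 at high GC content, and MRPL1 is the lowest member at -1.202.

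Other genes of mitochondrial translation were counted in the same fit. Over all genes tested, 8.04% were called and 35.6% had an unadjusted limma p under 0.05. The 5 mitoribosomal proteins with other symbols (DAP3, PTCD3, CHCHD1, AURKAIP1 and GADD45GIP1) were all tested, with 0 called in limma and 1 at an unadjusted p under 0.05. Of 15 translation factors, among them the elongation factor TUFM, 9 were tested, with 0 called and 1 at an unadjusted p under 0.05. Of 26 genes for mitoribosome assembly and rRNA modification, 16 were tested, with 0 called and 2 at an unadjusted p under 0.05. Their medians were -0.161, -0.058 and 0.003.

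The list of mitochondrial aminoacyl-tRNA synthetases, which supply charged tRNA to the mitoribosome, also held GATB, GATC and QRSL1, which are not synthetases. Of its 20 genes 11 were tested, with calls in both directions. An unadjusted limma p under 0.05 was reached by 27.3% of those tested, next to 35.6% of all genes. HARS2, the mitochondrial histidyl-tRNA synthetase, scored 24 and 25 under NonS against 42 and 43 under APC shRNA. IARS2, the mitochondrial isoleucyl-tRNA synthetase, scored 34 in each NonS duplicate against 21 and 19 under APC shRNA. HARS2 rose by 0.771 (SE 0.054) and IARS2 fell by 0.739 (SE 0.072) on the log2 scale, with adjusted p = 0.0423 and 0.0452 in limma with Benjamini-Hochberg adjustment. Among 8 of 11 tested genes of mitochondrial DNA transcription and maintenance, MGME1, an exonuclease of mitochondrial DNA, was called lower, from 15 and 14 to 10 and 10. With any of the 4 libraries left out, limma called 0 of all genes tested, with 578 to 778 higher and 541 to 564 lower at an unadjusted p under 0.05. These 3 calls, like that of MRPL16, therefore need all 4 libraries.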

How the data were processed

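RNA of HT-29 cells, 2 NonS and 2 APC shRNA libraries grouped by the sample titles, was sequenced from stranded mRNA libraries. The authors filtered the reads, trimmed polyA tails, aligned with TopHat2, assigned reads to GENCODE v29 genes by htseq-count and ran DESeq2. The study's methods name human assembly 38, while the submitters' processing notes list hg19, bcl2fastq 2.19.0.316 and DESeq2 1.4.1. The strand option of the counting is not given in the sources used here. The deposited values were treated as a score of unstated scale: their variance between replicates was 0.484 (NonS) and 0.363 (APC shRNA) times that of read counts, and value times transcript length in kb summed to 980841 to 984873 in every library. Depth is therefore unknown, and rounding limits low values. The deposited comparison table holds the authors' mean, fold changes and adjusted p-values, of which only the listing of genes was used. All columns of samples were used (0 left out).

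Values were compared as log2(value + 1), without scaling, for genes whose mean reached 10, by limma 3.58.1 in R 4.3.3 (lmFit, eBayes with trend) with Benjamini-Hochberg adjustment. The test was tried on simulated data. GC content, length and positions are from GENCODE v29 (GRCh38), and the GC correction removed a loess trend (span 0.5) per library over all genes tested. Nothing says that the duplicates came from separate transductions, so p-values measure the spread between these libraries only. Members, lists and tests were chosen with earlier results of these data known. The members named were those called, the 3 highest and 3 lowest differences per subunit, the 4 highest means, those next to the mean of 10, the lowest and highest GC content, and MRPS18A, MRPS18B, MRPS18C, MRPS30, MRPL12, MRPL58 and MRPS36. Alternatives covered scaling, pseudocount, filters, gene types, variance model, threshold, GC content, length, replicate number and each library left out.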

Additional observations from a re-analysis of the deposited data

How the results depend on the processing

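Unless said otherwise, counts are limma calls at an adjusted p under 0.05, given as higher and lower. Members called were 0 and 1 as reported, 0 and 2 under median-of-ratios scaling or a total of at least 1, and 1 and 3 with scaling to equal totals, upper-quartile scaling, GC content correction or length correction. They were 1 and 2 with robust moderation, 0 and 0 at an adjusted p under 0.01 (3 and 12 at an unadjusted p under 0.05), and 0 and 0 with any library left out (1 to 2 and 4 to 8 unadjusted). All genes called were 233 and 199 as reported, 310 and 305 with median-of-ratios, 343 and 369 with equal totals, 336 and 349 with upper quartile, 952 and 515 with a total of at least 1, 139 and 134 with at least 10 in every library, 159 and 140 with a mean of at least 8, 447 and 455 with GC content correction, 409 and 370 with length correction, 368 and 352 with robust moderation, and 0 and 0 at 0.01 or with any library left out.

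The replicate numbers I and II were not taken as a pairing, because no label ties them to a shared batch and there are 2 pairs. The differences between replicates II and I were correlated between the conditions (0.724 across all genes, 0.635 across the members), as a hint from the data. With the replicate block, members called were 1 (MRPS6) and 6 (MRPL13, MRPL16, MRPL17, MRPL24, MRPL39 and MRPS31), and all genes 523 and 500. With the block and the GC content correction together they were 8 and 21, and 1256 and 1245.

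The median log2 difference of the members, -0.076, was -0.104 with equal totals, -0.111 with upper quartile, -0.109 with a mean of at least 8 or a total of at least 1, -0.045 with GC content correction, and -0.086 to -0.046 with each library left out. The large subunit median, -0.109, was -0.138 with equal totals, -0.144 with upper quartile, -0.091 with a pseudocount of 5, -0.119 with a mean of at least 8 or a total of at least 1, -0.093 with at least 10 in every library, -0.094 with GC content correction, -0.118 with length correction, and -0.104 to -0.08 with each library left out. The small subunit median, -0.072, was 0.018 with GC content correction and -0.112 to -0.037 with each library left out. The GC-corrected median of the members, -0.045, was -0.103 with a total of at least 1 and -0.108 to -0.018 with each library left out. The correlation of GC content and difference, 0.007, was -0.506 after GC content correction and -0.136 to 0.173 with each library left out. The block beside the GC content correction left these medians and the correlation the same.

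Of 240 values of the 24 named members tested, 200 kept their sign and side of the threshold, 23 passed 0.05 only under the alternative, 4 lost the call (MRPL16 with each library left out) and 14 changed sign. Of the 23, 1 also changed sign: MRPS30 with the block and GC content correction (0.263, adjusted p = 0.0276 in limma). With GC content correction, with and without the block, MRPL45 came to 0.015, MRPL55 to -0.045, MRPS18C to 0.208 and MRPS30 to 0.263. MRPS15 was -0.002 with equal totals and -0.009 with upper quartile. With each library left out, MRPL45 ranged from -0.062 to 0.009, MRPS10 from -0.027 to 0.335, MRPS15 from -0.034 to 0.09 and MRPS18C from -0.2 to 0.063. For the other changes the cause was not tested.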

Other observations

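Genes with symbols of cytosolic ribosomal proteins, which make the ribosomes outside mitochondria, were counted in the same fit. Their difference from the mitochondrial ones was not tested. The list was made by symbol and also holds similarly named genes such as RPL7L1 (log2 difference -0.125). Of 81 tested, 66 had a log2 difference above 0 and 15 below, with a median of 0.139. Among all 5376 genes tested, 2827 lay above 0 and 2534 below. But limma called 0 of the 81, with 12 higher and 0 lower at an unadjusted p under 0.05. Over all genes tested, 8.04% were called and 35.6% reached that unadjusted p. Both APC shRNA libraries lay above NonS for 50.6% of the 81 and below for 2.47%, next to 33.0% and 27.5% of all genes tested.

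The nuclear genes of the respiratory chain and the ATP synthase had a median of -0.057 over 76 tested, with 48 below 0 and 26 above. Over all genes tested, 2534 differences lay below 0 and 2827 above. The list was made by symbol, so it can also hold genes that are not subunits. Its differences ranged from -2.969 to 0.567, and limma called 0 of its genes lower, the gene at -2.969 included. At an unadjusted limma p under 0.05, 3 were higher and 6 lower, 11.8% of those tested, against 35.6% of all genes. Both APC shRNA libraries lay below NonS for 36.8% of those tested and above for 15.8%, close to 35.2% and 14.1% of the members. The shares over all genes tested were 27.5% and 33.0%. UQCRC2, a core subunit of complex III, was called higher in limma, from 84 and 82 under NonS to 120 and 127 under APC shRNA (log2 difference 0.567, SE 0.062). The 13 protein-coding genes of mitochondrial DNA had a median of 0.145, with 10 above 0. Limma called 0 of them, with 1 higher and 0 lower at an unadjusted p under 0.05. MT-CO1 of complex IV, chosen after its values were seen, scored 9590 and 10721 under NonS against 12888 and 11807 under APC shRNA. MT-ATP6, a subunit of the ATP synthase also chosen after its values were seen, scored 13213 and 13662 against 13872 and 11579.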
